A study of Mus musculus with 12 samples.

Results

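Red blood cells are built in the bone marrow from nucleated precursors, the erythroblasts, and the 8 genes described here span that programme from its nuclear regulators to the membrane of the finished cell. They were Gata1, Klf1, Epor, Slc4a1, Rhag, Epb42, Ank1 and Sptb, and were chosen by name, with earlier results of these data known. All 8 were found by Ensembl identifier among the 37620 genes of the deposited count table, and all 8 passed the filter on low counts in every comparison. The 12 libraries came from cells of the tibia of c57/Bl6 mice that were purified by endomucin, a surface glycoprotein of bone capillaries, and labelled bone endothelial cells (BECs). There were 3 libraries each from 2-week females, 2-week males, 65-week females and 65-week males, with no transgene and no treatment named in any group. The study's methods describe cells from tibiae and femurs of C57BL/6J mice, lysis of red blood cells, then capture on endomucin-coated magnetic beads. Library totals were 35012947 to 38289171 counts in 2-week females, 36335541 to 44569600 in 2-week males, 29049031 to 34088694 in 65-week females and 26044743 to 27323682 in 65-week males. The labels do not say whether the 3 libraries of a group came from separate animals, so p-values measure the spread between libraries, which may be technical.

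Gata1 encodes a zinc finger transcription factor that erythroblasts need to survive and mature, and Klf1 encodes another factor that switches on adult globin and membrane genes. Epor is the receptor of erythropoietin, the kidney hormone that sustains erythroid progenitors and signals through Jak2 and Stat5. The other 5 genes build the membrane. Slc4a1 (band 3) exchanges chloride for bicarbonate and Rhag is the Rh-associated glycoprotein, both spanning the membrane, while ankyrin (Ank1) and protein 4.2 (Epb42) tie band 3 to the spectrin skeleton, whose beta chain is encoded by Sptb. Loss of ankyrin, band 3, spectrin or protein 4.2 is known to cause spherocytosis, in which red cells lose membrane and become fragile. Gata1 and Klf1 bind DNA at GATA and CACCC-type elements, respectively.

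The 250 bases before the annotated start are shown for 4 of the genes, picked by the outcome of the age tests below. Epb42 and Sptb were called higher at 65 weeks in both sexes, whereas Rhag and Epor were called in neither. The sequences are from RefSeq on GRCm38.p6 and run 5′ to 3′ along each gene's own strand. Capitals mark matches, on either strand, to GATAA and to CCNCNCCC.
Rhag (chr17:40810899-40811148, plus strand): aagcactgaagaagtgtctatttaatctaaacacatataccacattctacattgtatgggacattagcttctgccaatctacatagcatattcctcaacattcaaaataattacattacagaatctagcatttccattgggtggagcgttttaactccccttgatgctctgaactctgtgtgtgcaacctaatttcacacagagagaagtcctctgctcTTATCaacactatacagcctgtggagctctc
Epb42 (chr2:121036878-121037127, minus strand): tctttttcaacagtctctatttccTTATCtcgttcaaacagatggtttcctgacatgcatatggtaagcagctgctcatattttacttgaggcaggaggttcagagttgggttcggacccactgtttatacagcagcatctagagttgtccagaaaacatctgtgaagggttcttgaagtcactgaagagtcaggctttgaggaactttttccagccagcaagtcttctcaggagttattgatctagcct
Epor (chr9:21963577-21963826, minus strand): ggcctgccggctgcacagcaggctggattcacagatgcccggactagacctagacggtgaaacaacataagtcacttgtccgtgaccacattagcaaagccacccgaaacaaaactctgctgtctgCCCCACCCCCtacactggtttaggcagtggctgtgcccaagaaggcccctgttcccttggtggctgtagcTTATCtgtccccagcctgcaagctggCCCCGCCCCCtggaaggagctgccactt
Sptb (chr12:76710548-76710797, minus strand): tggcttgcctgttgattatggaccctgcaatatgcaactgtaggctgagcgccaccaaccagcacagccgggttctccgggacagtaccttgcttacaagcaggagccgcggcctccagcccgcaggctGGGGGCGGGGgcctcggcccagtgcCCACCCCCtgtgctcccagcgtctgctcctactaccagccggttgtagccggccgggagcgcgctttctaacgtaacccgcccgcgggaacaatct
RefSeq windows were found for 6 of the 8 genes and not for Slc4a1 and Ank1. GATAA was matched 31 bases before the start of Rhag, 226 before Epb42, 54 before Epor and 80 before Klf1, and had no match in the windows of Sptb and Gata1. CCNCNCCC, whose matches may overlap each other, had 3 matches in Sptb, 4 in Epor and 3 in Gata1, and none in Rhag, Epb42 and Klf1. Of 32851 mouse windows of the same length, 22.6% held GATAA, 45.9% held CCNCNCCC and 6.89% held both. Neither motif separated Epb42 and Sptb from Rhag and Epor. A match describes the letters of the window and is not a measured binding site.

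The labelled cell type was first compared with its markers. Each of 14 endothelial genes was above 0 counts at both ages, but their summed level was 3444 to 6315 CPM (counts scaled to a common library total) at 2 weeks and 232 to 347 CPM at 65 weeks. Emcn, the gene of the protein used for purification, ranged from 115 to 227 CPM at 2 weeks and from 2.80 to 6.98 CPM at 65 weeks. The 4 adult globin genes summed to 28582 to 47861 CPM in 2-week females, 25328 to 35918 in 2-week males, 33131 to 38187 in 65-week females and 24659 to 36757 in 65-week males. Globin RNA was thus abundant in every library. In these bulk libraries, more cells of a type and more RNA per cell cannot be told apart. The 8 genes together held 0.457% to 1.06% of the counts of a library.

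The nuclear regulators were measured at levels that overlapped between the ages in each sex. Gata1 (ENSMUSG00000031162, chromosome X, 7825499 to 7844310 of GRCm39, minus strand) was measured at 171, 139 and 217 CPM in 2-week females, 125, 165 and 139.6 in 2-week males, 148, 146 and 142 in 65-week females, and 164, 203 and 109 in 65-week males. Its highest and its lowest library were thus a young female and an old male. Klf1 (ENSMUSG00000054191, chromosome 8, 85628557 to 85631934, plus strand) was measured at 264, 197 and 324 CPM in 2-week females, 167, 255 and 220.1 in 2-week males, 313, 316 and 300.3 in 65-week females, and 353, 427 and 231 in 65-week males. The old males included the highest Klf1 library, and their lowest lay below the highest young male library. Klf1 shares 814 exon bases with Gcdh on the opposite strand, and whether the counting used strand is not given in the sources used here.

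Epor (ENSMUSG00000006235, chromosome 9, 21870192 to 21874879, minus strand) was measured at 110.5, 91.1 and 133 CPM in 2-week females, 94.1, 112 and 97.3 in 2-week males, 121, 109 and 122 in 65-week females, and 111, 141 and 85.1 in 65-week males. The 4 groups overlapped, and the group means of this receptor lay between 101 and 117 CPM. Epor shares 953 exon bases with Swsap1 on the opposite strand. Epo, the gene of its ligand, had 0 counts in all 12 libraries.

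The transmembrane proteins were the most abundant of the membrane genes per length of transcript. Slc4a1 (ENSMUSG00000006574, chromosome 11, 102239650 to 102257029, minus strand) was measured at 5142, 3742 and 5941 CPM in 2-week females, 3052, 4836 and 3894 in 2-week males, 5780.4, 5713 and 5317 in 65-week females, and 5386, 6236 and 3804 in 65-week males. Rhag (ENSMUSG00000023926, chromosome 17, 41122017 to 41151645, plus strand) was measured at 383, 283 and 430.4 CPM in 2-week females, 239.6, 361 and 313 in 2-week males, 392, 376 and 371 in 65-week females, and 372, 434 and 268 in 65-week males. For both genes the young and old libraries overlapped in each sex.

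For the genes of the membrane skeleton and its anchors the libraries of the ages did not overlap. Of all genes tested, 27.6% in females and 26.0% in males also lay higher at 65 weeks with no overlap. Sptb (ENSMUSG00000021061, chromosome 12, 76627247 to 76757321, minus strand) was measured at 884, 656 and 1094 CPM in 2-week females and 1564, 1521 and 1452 in 65-week females, and at 426, 698 and 535 in 2-week males and 1369, 1660.1 and 1022 in 65-week males. All 3 old libraries lay above all 3 young libraries in each sex. Ank1 (ENSMUSG00000031543, chromosome 8, 23464860 to 23640513, plus strand) was measured at 559, 404 and 733 CPM in 2-week females and 809, 748 and 746 in 65-week females, and at 268, 449 and 357 in 2-week males and 743, 959 and 529 in 65-week males. The ages did not overlap in either sex, though in females the nearest libraries were 733 and 746. Epb42 (ENSMUSG00000023216, chromosome 2, 120848372 to 120867553, minus strand) was measured at 335, 250.1 and 411 CPM in 2-week females and 513, 481 and 453 in 65-week females, and at 198, 312 and 272 in 2-week males and 403, 519 and 321 in 65-week males. Again no old library lay at or below a young one of the same sex, with 312 and 321 the nearest pair in males.

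**Figure D1:**
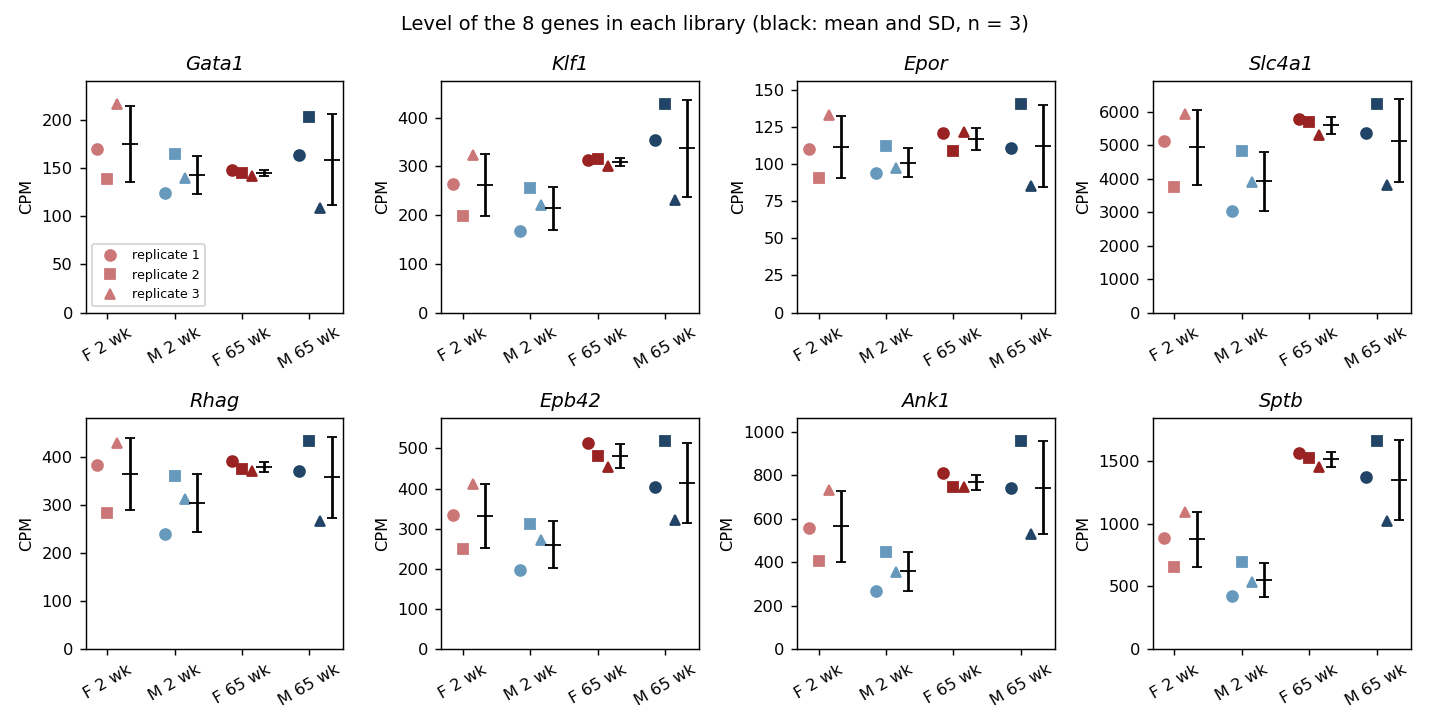
Level of each of the 8 genes in CPM (vertical axis, from 0) in the 12 libraries, with 1 symbol per replicate, grouped by sex and age, and the mean ± SD (n = 3) in black. Epb42, Ank1 and Sptb lie higher in the old than in the young libraries of the same sex with no overlap, while the other 5 genes overlap between the ages. Of all genes tested, 27.6% in females and 26.0% in males lay higher with no overlap.

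To compare levels between genes, counts were divided by exon length and library total, giving CPM per kilobase. Slc4a1 stood first in every group, with a mean of 803 CPM per kilobase in 2-week males and 1146 in 65-week females (SD 183 and 51.2, n = 3 each). Klf1 came next and Rhag after it in every group, at 139 to 218 and 130.1 to 162 CPM per kilobase. The libraries of these neighbours overlapped in 3 of the 4 groups and were separate in 65-week females. Below them the order differed between the groups, and only 65-week females had Sptb, Epb42 and Gata1 apart. In 2-week males Sptb (45.5 ± 11.3), Epb42 (48.1 ± 10.7) and Gata1 (57.6 ± 8.14 CPM per kilobase, SD, n = 3) overlapped. In 65-week females Sptb (124 ± 4.65) lay above Epb42 (89.0 ± 5.54), which lay above Gata1 (58.5 ± 1.21), with no overlap. Neighbours among them overlapped in 2-week females (Sptb 72.2 ± 18.0, Gata1 70.6 ± 15.9, Epb42 61.3 ± 14.8). The same was true of 65-week males (Sptb 111 ± 26.3, Epb42 76.5 ± 18.4, Gata1 64.0 ± 19.1). By group mean, Ank1 and Epor were the lowest pair in every group, with Ank1 last at 2 weeks and Epor last at 65 weeks. The libraries of this pair overlapped in 2-week females and 65-week males. Epor also overlapped Sptb in 2-week males, and Ank1 overlapped Gata1 in 65-week females. Exon lengths were unions over all GENCODE transcripts, so rare long forms lower these values, most of all for Ank1 (13527 bases) and Sptb (12165 bases). Exon bases shared with genes on the other strand, as in Klf1 and Epor, were not taken out, and their effect was not tested. Ank1 shares 862 with Gm15816, which had 52 counts in all.

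Within a group the 8 genes moved together from library to library. In 2-week females replicate 3 was the highest and replicate 2 the lowest for 8 of 8 genes, and the whole order held for 8 of 8. The same was true of 2-week males (replicate 2 highest, replicate 1 lowest) and of 65-week males (replicate 2 highest, replicate 3 lowest). In 65-week females, whose libraries differed least, 6 of 8 genes had 1 order. Among all genes that passed the filter on low counts within the group, 22.4%, 14.1%, 20.4% and 20.8% had that same order in 2-week females, 2-week males, 65-week males and 65-week females. The highest library exceeded the lowest by 1.46-fold (Epor) to 1.81-fold (Ank1) in 2-week females and by 1.62-fold (Epb42) to 1.86-fold (Gata1) in 65-week males, but by no more than 1.13-fold (Epb42) in 65-week females.

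Ratios between the genes varied less than the levels. The SD within groups of log2 CPM was 0.24 to 0.36 for the 8 genes, whereas that of the log2 ratio of 2 of them had a median of 0.0798 over the 28 pairs. It was smallest for Slc4a1 against Rhag and Slc4a1 against Sptb (0.0390 each) and largest for Epor against Ank1 (0.16). Across all 12 libraries the SD was also smallest for Slc4a1 against Rhag (0.0871) and largest for Gata1 against Sptb (0.62). For Slc4a1 against Rhag this exceeded the SD within groups of 0.0390, so the ratio also differed between groups.

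The order of libraries was also counted in the other lists. In 2-week males the order of the 8 genes was shared by 18 of 18 further red cell membrane genes, 11 of 11 heme and iron genes, 4 of 4 adult globins and 11 of 12 cell cycle genes, compared with 4 of 13 erythropoietin signalling genes and 0 of 14 endothelial genes. In 65-week males it was shared by 17 of 18 membrane genes, 11 of 11 heme and iron genes and 12 of 12 cell cycle genes, but by 2 of 4 globins, and by 9 of 10 megakaryocyte genes. In 65-week females the share was lower, with 10 of 18 membrane genes, 6 of 14 regulators, 5 of 12 cell cycle genes and 1 of 4 globins. Genes are not independent replicates, and each order rests on 3 libraries.

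**Figure D2:**
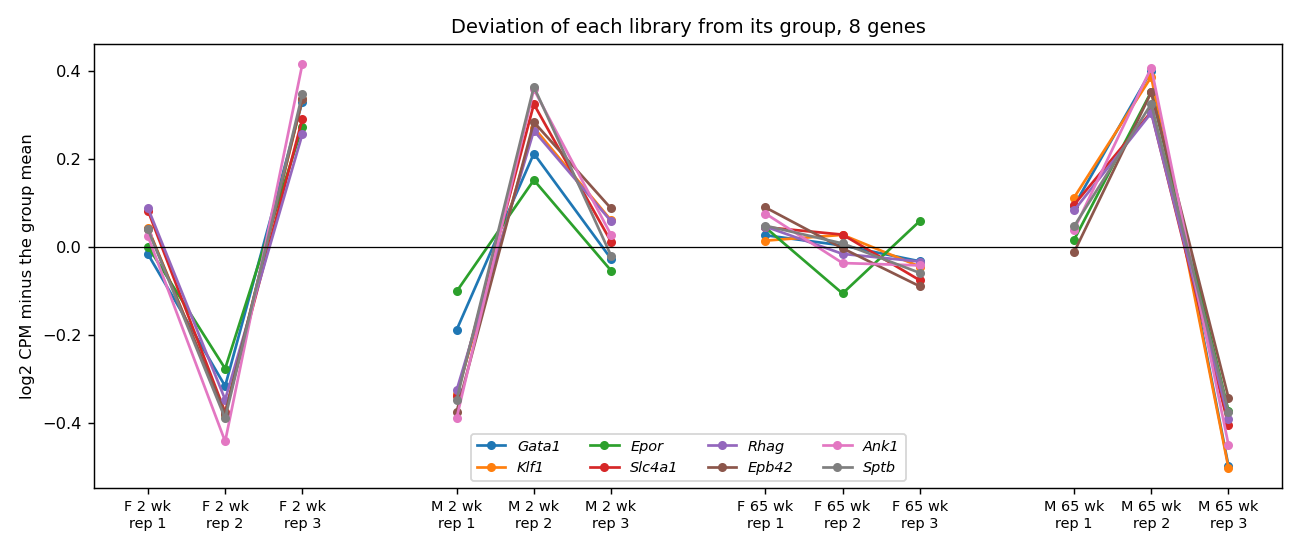
Deviation of each library from its group mean in log2 CPM (vertical axis) for the 8 genes, 1 coloured line per gene, with the 3 replicates of the 4 groups on the horizontal axis. The lines run nearly parallel within 2-week females, 2-week males and 65-week males and stay close to 0 in 65-week females.

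How expression changed from 2 to 65 weeks was then tested in each sex. In females 3 of 8 genes rose, Sptb, Epb42 and Ank1, and none fell (quasi-likelihood test of edgeR, threshold 0.05 after Benjamini-Hochberg adjustment). Of 15120 genes tested in this comparison 59.7% were called, 30.2% as higher and 29.5% as lower, so the 3 of 8 called higher were near the share of all genes called higher. The log2 fold change was 0.91 for Sptb (SE 0.18, edgeR adjusted p = 0.00277), 0.67 for Epb42 (SE 0.18, edgeR adjusted p = 0.0118) and 0.57 for Ank1 (SE 0.20, edgeR adjusted p = 0.0387). The ratio of the mean CPM at 65 weeks to that at 2 weeks was 1.72 for Sptb, 1.45 for Epb42 and 1.36 for Ank1. CPM of the ages did not overlap for these 3 genes, as for 27.6% of all genes in the higher and 41.6% in the lower direction. The call of Ank1 was lost in 4 of 6 fits on 5 libraries, namely without 2-week replicate 1 or any 1 of the 65-week replicates, with log2 fold changes of 0.52 to 0.59 and SEs of 0.22 to 0.24.

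The regulators and transmembrane genes were not called in females. Klf1 differed by 0.37 (SE 0.17, edgeR adjusted p = 0.0981), Slc4a1 by 0.31 (SE 0.17, edgeR adjusted p = 0.143), Epor by 0.20 (SE 0.15, edgeR adjusted p = 0.266), Rhag by 0.19 (SE 0.15, edgeR adjusted p = 0.33) and Gata1 by -0.14 (SE 0.16, edgeR adjusted p = 0.474), all in log2 units. Gata1 was the 1 gene of the 8 with a lower estimate. The median of the 8 values was 0.34, beside 0.0056 over all genes tested. Without 2-week replicate 3, the library with the highest level of every one of the 8 genes in its group, 5 of 8 were called, with Klf1 and Slc4a1 in addition, beside 56.5% of all genes in that fit. Without 2-week replicate 2, the lowest library of that group, Gata1 was called as lower (-0.34, SE 0.11, edgeR adjusted p = 0.031).

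In males 4 of 8 genes rose, the same 3 and Klf1, and none fell. Of 14959 genes tested 55.5% were called, 27.0% as higher and 28.5% as lower. The log2 fold change was 1.41 for Sptb (SE 0.25, edgeR adjusted p = 0.00201), 1.18 for Ank1 (SE 0.27, edgeR adjusted p = 0.00714), 0.79 for Epb42 (SE 0.23, edgeR adjusted p = 0.0204) and 0.78 for Klf1 (SE 0.26, edgeR adjusted p = 0.0328). The mean CPM at 65 weeks was 2.44 times that at 2 weeks for Sptb, 2.08 times for Ank1, 1.59 times for Epb42 and 1.58 times for Klf1. The Klf1 libraries of the ages overlapped, those of the other 3 did not, as for 26.0% of all genes in the higher and 39.4% in the lower direction. Slc4a1 differed by 0.51 (SE 0.25, edgeR adjusted p = 0.113), Rhag by 0.36 (SE 0.22, edgeR adjusted p = 0.206), Gata1 by 0.28 (SE 0.24, edgeR adjusted p = 0.349) and Epor by 0.27 (SE 0.19, edgeR adjusted p = 0.264), and none of these was called. The median of the 8 values was 0.65, beside 0.0080 over all genes tested.

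Male 65-week replicate 3 was the lowest of its group for all 8 genes, and without it 8 of 8 were called higher, while 62.0% of all genes were called in that fit in either direction, with Gata1 at 0.48 (SE 0.15, edgeR adjusted p = 0.022) and Slc4a1 at 0.68 (SE 0.22, edgeR adjusted p = 0.0264). Without 2-week replicate 1, 2-week replicate 3, 65-week replicate 1 or 65-week replicate 2 the count was 2, Sptb and Ank1, beside 42.7% to 53.7% of all genes. These 2 genes were called in every male fit, and Sptb and Epb42 in every female fit.

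**Figure D3:**
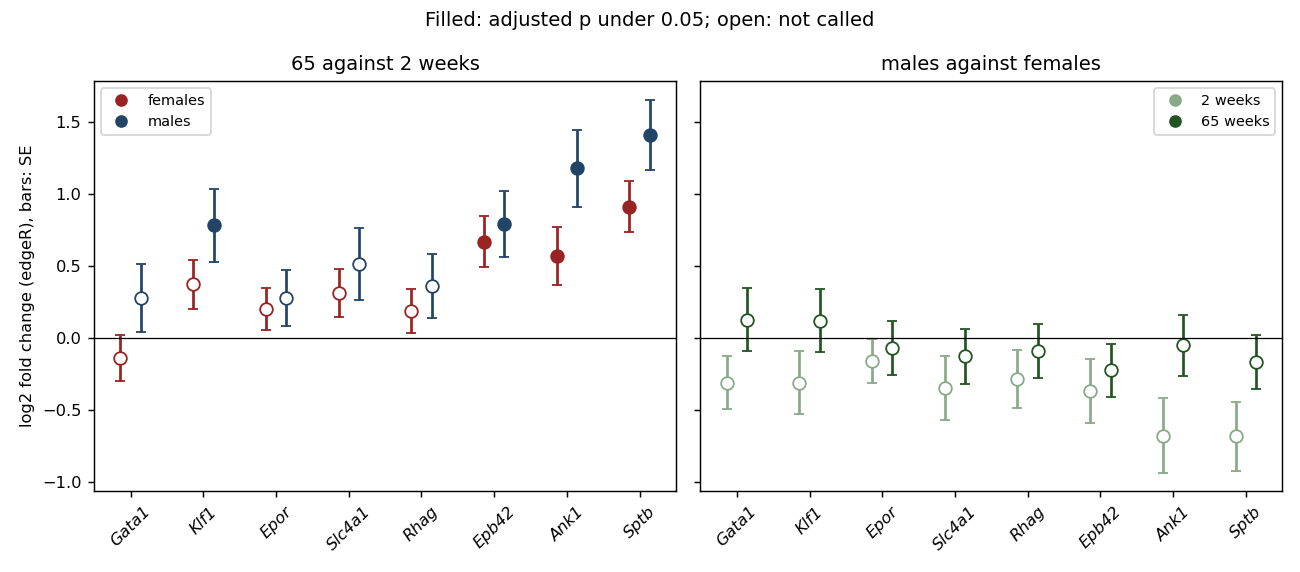
Log2 fold change (vertical axis, edgeR) with its SE for the 8 genes between ages in each sex (left) and between sexes at each age (right), with filled circles for an adjusted p under 0.05. Sptb, Ank1 and Epb42 are filled in both sexes and Klf1 in males, and no circle is filled on the right.

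Levels were also set against 2 other measures, the summed adult globins and Gata1, and such ratios do not depend on how a library was scaled. Whether the Gata1 RNA came from erythroid cells alone was not tested. Relative to the summed adult globins, Sptb was higher at 65 weeks by 0.81 on the log2 scale in females and 1.24 in males, Ank1 by 0.48 and 1.00, Epb42 by 0.57 and 0.62, Klf1 by 0.27 and 0.59, and Slc4a1 by 0.21 and 0.34. For these 5 genes the ratios of the ages did not overlap in either sex (for Slc4a1 in females the nearest log2 ratios were -2.742 and -2.741), as for 21.3% of all genes in females and 18.7% in males. Rhag differed by 0.077 and 0.18 and Epor by 0.086 and 0.080, with overlap in both sexes. The ratio of Gata1 to globins was lower at 65 weeks in females by 0.25 with no overlap, and was 0.069 higher in males with overlap. The share of all genes with a lower ratio to globins was not counted. By CPM, 41.6% of all genes in females were lower with no overlap. These are descriptions, with no test.

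Relative to Gata1, an alternative chosen after seeing the data, Sptb was higher at 65 weeks by 1.06 in females and 1.17 in males, Ank1 by 0.73 and 0.93, Epb42 by 0.81 and 0.55, Klf1 by 0.52 and 0.52, and Slc4a1 by 0.45 and 0.27, again with no overlap in either sex. Rhag and Epor were also higher relative to Gata1 in females, by 0.33 each with no overlap, and overlapped in males (0.11 and 0.011). Of all genes, 33.1% in females and 16.7% in males had a higher ratio to Gata1 with no overlap. The log2 ratio of Klf1 to Gata1 was 0.63, 0.51 and 0.58 in 2-week females and 1.08, 1.12 and 1.08 in 65-week females, and 0.42, 0.63 and 0.66 in 2-week males and 1.10, 1.07 and 1.08 in 65-week males. The spread within each old group was thus small beside the distance between the ages, although the Klf1 levels themselves overlapped.

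**Figure D4:**
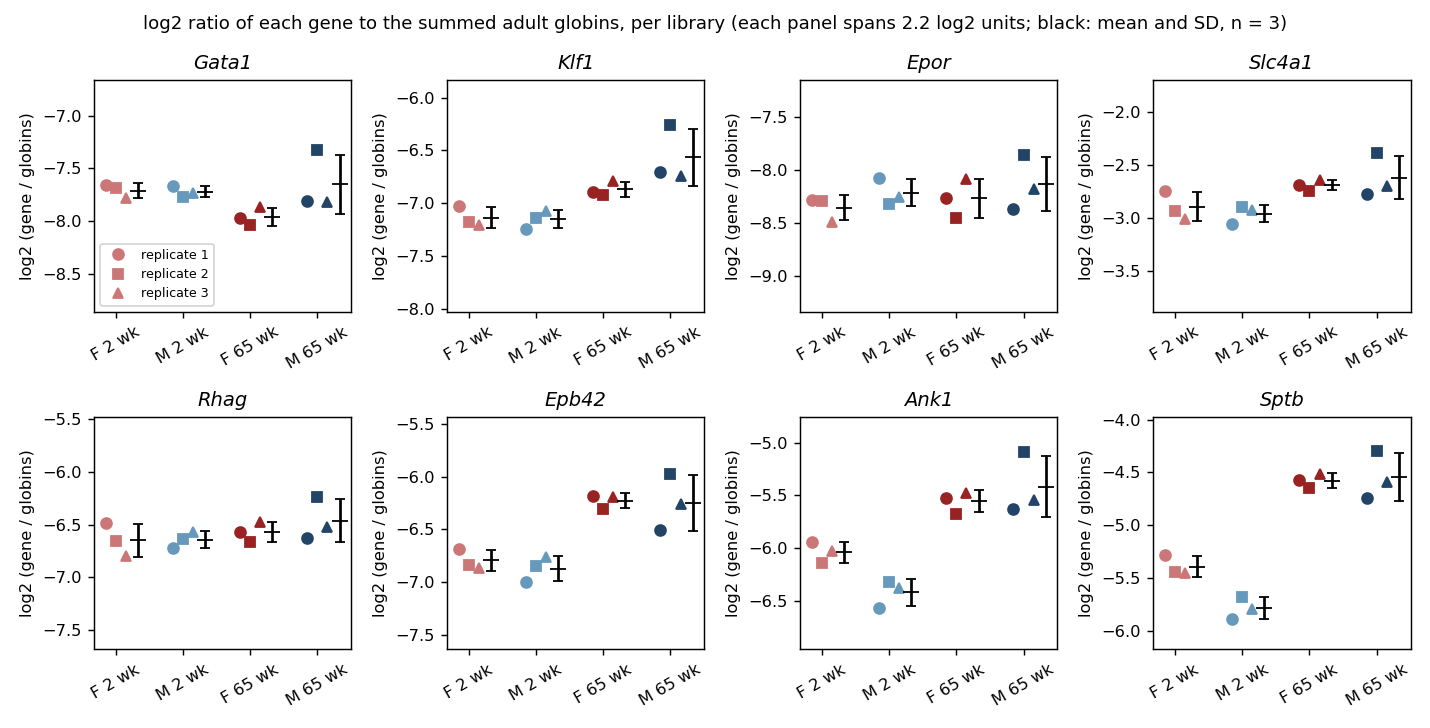
Log2 ratio of each gene to the summed CPM of the 4 adult globins (vertical axis, each panel spanning 2.2 log2 units) in the 12 libraries, with mean ± SD (n = 3) in black. Sptb, Ank1, Epb42, Klf1 and Slc4a1 lie higher in the old libraries of both sexes, and Rhag and Epor overlap between the ages.

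Sex differences were tested at each age. At 2 weeks 0 of 8 genes were called by edgeR or by DESeq2, beside 0.0332% of 15081 genes tested by edgeR (0.0265% higher and 0.00663% lower). Of the 15081 genes, 2683 had an unadjusted edgeR p under 0.05, and so did 2 of the 8. Those 2 were Sptb (log2 fold change in males against females -0.69, SE 0.24, edgeR adjusted p = 0.238), and Ank1 (-0.68, SE 0.26, edgeR adjusted p = 0.253). All 8 estimates were below 0, with a median of -0.33 beside 0.011 over all genes, and every one of the 8 overlapped between the sexes, while 9.97% of all genes lay higher and 11.8% lower in males with no overlap.

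At 65 weeks 0 of 8 genes were called by either tool, while 0.0420% of 14287 genes were called by edgeR. An unadjusted edgeR p under 0.05 was found for 0 of 8, beside 1479 of the 14287 genes. All 8 overlapped between the sexes, while 9.32% of all genes lay higher and 6.16% lower in males with no overlap. Estimates ran from -0.23 for Epb42 (SE 0.18) to 0.13 for Gata1 (SE 0.22). Without male 65-week replicate 3 the estimates of Epor, Slc4a1, Rhag, Sptb and Ank1 turned positive, from 0.017 for Sptb to 0.16 for Ank1, and were not called.

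The sex by age interaction, fitted on the 12 libraries together, asked whether ageing moved these genes differently in males and females. None of the 8 genes was called (0 of 8 by edgeR and by DESeq2), beside 0.00635% of 15747 genes by edgeR. An unadjusted edgeR p under 0.05 was found for 0 of 8, beside 1880 of the 15747 genes. The estimate was largest for Ank1 (0.60, SE 0.36, edgeR adjusted p = 0.536) and Sptb (0.49, SE 0.32, edgeR adjusted p = 0.573). The larger fold changes of these genes in males were therefore not shown to differ from those in females. The age and sex comparisons share libraries.

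Further genes of the programme were examined as lists. Of 14 erythroid regulators other than Gata1 and Klf1, 8 rose and 1 fell in females, and 10 rose in males, with medians of 0.48 and 0.72. With 1 library left out, 6 to 9 rose and 0 to 2 fell in females. In males 8 to 11 rose and 0 to 1 fell. The leading genes were Bcl11a, a repressor of fetal globin (1.10, SE 0.13, in females and 1.24, SE 0.18, in males), the forkhead factor Foxo3 (1.03, SE 0.13, and 1.23, SE 0.17) and Sox6 (0.76, SE 0.18, and 1.03, SE 0.23). Their edgeR adjusted p-values lay between 0.000205 and 0.00727. Bcl11a is also expressed in B cells. Tal1, a partner of Gata1 in DNA-bound complexes, was not called (0.098, SE 0.16, and 0.33, SE 0.20).

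Among 18 further red cell membrane genes 9 rose in females and 12 in males, and none fell. Epb41, protein 4.1 of the skeleton, rose by 0.99 (SE 0.16, edgeR adjusted p = 0.00119) in females and 1.09 (SE 0.20, edgeR adjusted p = 0.0025) in males. Cd47, which is found on many cell types, rose by 0.79 (SE 0.13, edgeR adjusted p = 0.00102) in females and 0.82 (SE 0.13, edgeR adjusted p = 0.00138) in males, and Dmtn, the actin-bundling dematin, by 0.64 (SE 0.20, edgeR adjusted p = 0.0242) and 1.08 (SE 0.24, edgeR adjusted p = 0.00617). In males the count was 7 without 2-week replicate 1. With both sexes in 1 model and a shared age effect, chosen after seeing the data, the count was 14.

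Haemoglobin synthesis was examined as 2 lists. Of 4 adult globins, Hba-a2 was the gene called, by 0.45 (SE 0.14, edgeR adjusted p = 0.0266) in females and 0.64 (SE 0.22, edgeR adjusted p = 0.0422) in males. Its coding sequence is nearly identical to that of Hba-a1, so counting may split their reads, and the call was lost with library totals as the scaling and, in each sex, in 4 of the 6 fits that omitted a library. Of 11 genes of heme synthesis and iron import 4 rose in each sex, among them the mitochondrial carriers Slc25a38 (0.76, SE 0.17, and 1.13, SE 0.23) and Slc25a37, also called mitoferrin (0.74, SE 0.22, and 1.05, SE 0.25), and the heme enzyme Cpox (0.62, SE 0.16, and 0.83, SE 0.21). Without male 65-week replicate 3 the count in males was 10, and in females it was 2 without 2-week replicate 1 and 7 without 2-week replicate 3.

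Of 12 genes of late erythroblasts 10 rose in each sex, with medians of 0.86 and 1.02. They included Ube2o, an enzyme that clears proteins during reticulocyte maturation (1.25, SE 0.15, in females and 1.31, SE 0.19, in males), the red cell enzyme Bpgm (1.19, SE 0.15, and 1.08, SE 0.21), Trim10 (1.09, SE 0.16, and 1.17, SE 0.23) and carbonic anhydrase Car1 (0.77, SE 0.16, and 1.63, SE 0.26). For these 4 genes the edgeR adjusted p was between 0.000203 and 0.00367. Taking the 5 erythroid lists together, 32 of 59 genes (54.2%) rose in females and 37 (62.7%) in males, beside 30.2% and 27.0% of all genes tested. This count leaves out erythropoietin signalling. Counts of single lists moved with 1 library left out, for the further membrane genes from 6 to 13 in females and 7 to 17 in males. The cells in which the listed genes rose were not tested.

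Genes of erythropoietin signalling went in both directions. Of 12 tested, 4 rose and 4 fell in females, and 5 rose and 4 fell in males. The genes that fell were Erfe, the erythroblast hormone that lowers hepcidin (-2.24, SE 0.27, in females and -2.80, SE 0.30, in males), and the feedback inhibitors Socs2 (-1.82, SE 0.18, and -2.66, SE 0.24), Cish (-1.43, SE 0.12, and -1.63, SE 0.15) and Socs3 (-0.93, SE 0.26, and -1.19, SE 0.15). All 8 edgeR adjusted p-values were 0.016 or below. Erfe was measured at 10.5 ± 1.61 CPM in 2-week and 2.03 ± 0.756 CPM in 65-week females, and at 8.23 ± 1.97 and 1.08 ± 0.294 CPM in males (SD, n = 3 each). Those that rose in both sexes were Ptpn6, Lyn, Bcl2l1 and Pim1, all of which other blood cells also express. Which cells the rises and the falls came from was not tested. Jak2, the kinase bound to the receptor, was not called (0.17, SE 0.073, and 0.12, SE 0.13).

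Relatives of the 8 genes that serve other cells went in both directions. Of 11 tested in females 7 fell and 2 rose, and of 12 in males 7 fell and 1 rose, beside 29.5% and 28.5% of all genes lower. Ank3, the ankyrin of neurons and epithelia, changed by -2.80 (SE 0.30, edgeR adjusted p = 0.000113) in females and by -3.72 (SE 0.26, edgeR adjusted p = 1.93e-05) in males. Slc4a3 fell in females by 2.55 (SE 0.59, edgeR adjusted p = 0.00642), and Klf2, a factor of endothelium and lymphocytes, rose by 1.66 (SE 0.10, edgeR adjusted p = 8.43e-06) in females and by 1.36 (SE 0.26, edgeR adjusted p = 0.00304) in males. Slc4a3 was low throughout, at 1.80 CPM or less on average in each group.

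Cell cycle genes were not called in females (0 of 12 by edgeR, 1 by DESeq2). An unadjusted edgeR p under 0.05 was found for 2 of 12, beside 9697 of 15120 genes. In males 2 of 12 rose, Mki67 by 1.61 (SE 0.32, edgeR adjusted p = 0.00396) and Top2a by 0.73 (SE 0.23, edgeR adjusted p = 0.0269). With 1 library left out, the call of Top2a was lost in 5 of 6 fits, in each of which the count was 1. Leaving out 65-week replicate 3 gave a count of 10.

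**Figure D5:**
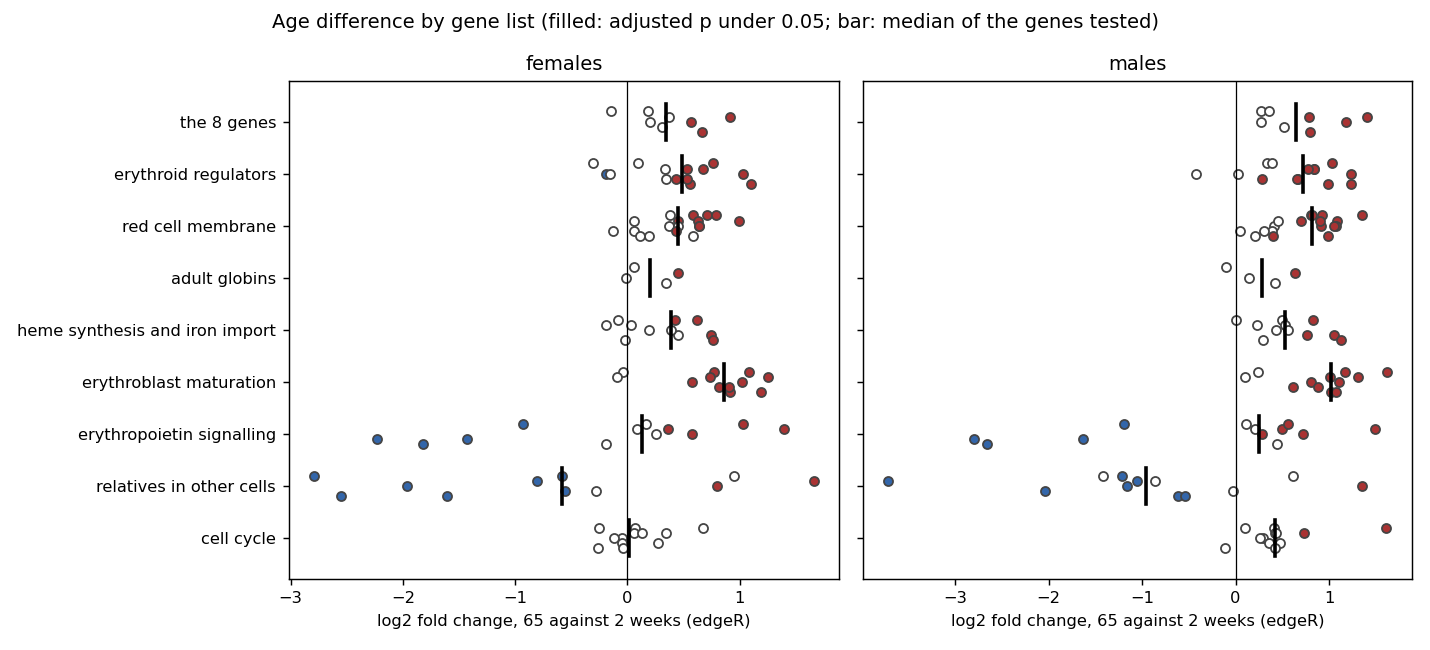
Log2 fold change at 65 against 2 weeks (horizontal axis, edgeR) of the genes tested in 9 lists, in females (left) and males (right), with 1 circle per gene, filled for an adjusted p under 0.05, and a bar at the median of each list. The erythroid lists lie mainly to the right of 0, the relatives of the 8 genes mainly to the left, and erythropoietin signalling on both sides.

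Markers of other cells changed between the same groups as the 3 skeletal genes. All 14 endothelial and all 10 megakaryocyte genes fell in both sexes, with the megakaryocyte sum at 1955 to 3323 CPM at 2 weeks and 169 to 450.1 at 65 weeks. Of 8 neutrophil genes 7 rose in females and 8 in males, and their sum was 3925 to 6156 CPM at 2 weeks and 11676 to 25436 at 65 weeks. Of 8 B cell genes 6 rose in each sex, with a sum of 250.2 to 345 CPM at 2 weeks and 378 to 1508 at 65 weeks. Markers of the erythroblastic island macrophage, which nurses erythroblasts, gave 7 of 8 higher in females, and 2 higher and 1 lower in males (sum 3118 to 5733 CPM at 2 weeks and 3681 to 5126 at 65 weeks). With 1 library left out the male counts ranged from 0 to 2 higher and from 0 to 1 lower. Of the mast cell, basophil and eosinophil genes 1 of 8 rose in each sex, and skeletal muscle genes summed to at most 28.9 CPM, with 2 of 7 lower in females (1 to 5 with 1 library left out) and 1 of 5 in males (1 to 3). No gene of these lists had 0 counts throughout. The part of these cells in the changes of the 8 genes was not tested.

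Exon length was also set beside the calls. The 3 genes that rose in both sexes were the longest of the 8, at 13527 (Ank1), 12165 (Sptb) and 5417 bases (Epb42), and the other 5 had 4891 bases or fewer. Klf1, called higher in males, was the shortest of the 8 at 1544 bases. Among all erythroid genes listed, the 8 included, those over 4 kb rose in 26 of 43 cases in females and 31 of 43 in males. Those of 4 kb or under rose in 9 of 24 and 10 of 24. Over all protein-coding genes the median log2 fold change was 0.038 above 8 kb and 0.044 under 2 kb in females, and 0.011 and 0.092 in males. The share of them called higher was 31.9% above 8 kb and 34.2% under 2 kb in females, and 27.6% and 30.8% in males. In the classes between, it was 26.5% and 27.0% in females and 24.3% and 23.7% in males. The part of length in the calls was not tested.

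The profiles most like the mean of the 8 genes were then listed, by the root mean square difference of centred log2 CPM over the 12 libraries among 12033 genes. The nearest were Abcb10 (0.0474), a mitochondrial transporter of erythroid cells, Slc43a1 (0.0492), Pigq (0.0512), Cep76 (0.0513), Kif11 (0.0568), Agfg2 (0.0595), Kifc1 (0.0597), Nek2 (0.0629), Dhrs11 (0.0641) and Rhd (0.0642), the Rh antigen carrier that forms a complex with Rhag. Kif11, Kifc1 and Nek2 act in the mitotic spindle. Single genes had other nearest neighbours, chosen for naming after their values were seen. Ank1 was nearest to Dmtn (0.0680), Epb42 to Hemgn (0.0509), Gata1 to the heme enzyme Alad (0.0530) and Rhag to Ptdss2 (0.0519). Sptb and Gata1 lay farthest of the 8 from the mean profile, at 0.34 and 0.26, and Slc4a1 (0.0757) and Klf1 (0.0779) nearest.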

How the data were processed

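RNA of 12 libraries was sequenced by the authors as 100-nucleotide paired reads, and the deposited values are raw counts per gene, not normalised. The submitters' processing notes name mm9, TopHat2 and HTSeq, while the study's methods name GRCm39, STAR and featureCounts, and which of them made the table could not be settled. The methods state that the samples with the best RNA quality were kept. Gene names, GRCm39 coordinates and exon lengths came from GENCODE M39 by Ensembl identifier (31052 of 37620 matched), so overlaps may differ in the authors' annotation.

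Genes were filtered with filterByExpr (minimum count 10), scaled with TMM and tested with edgeR 4.0.16 (quasi-likelihood, Benjamini-Hochberg threshold 0.05, R 4.3.3) within the 2 groups compared, and over 12 libraries for the interaction. The SE was taken from the fold change and its F value. CPM used library totals. Alternatives included DESeq2 1.42.0, other scalings and filters, thinned libraries, a replicate block and each library left out. The fit was tested on simulated data. Of each list up to 3 called genes with the largest change per age comparison were named, and the nearest 10 profiles among genes whose mean log2 CPM was 1 or more. Some results for single genes under this rule are not reported here. Genes named beyond this were chosen after their values were seen. Members and lists were chosen with earlier results of these data known. No 2 replicates agreed within sampling noise (chi-square per degree of freedom 26.6 or more).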

Additional observations from a re-analysis of the deposited data

How the results depend on the processing

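Sptb rose in both sexes under every setting run. Library totals as the scaling moved the median of all genes to -0.13 in females and -0.11 in males (log2), and Ank1 was then not called in females (0.44, edgeR adjusted p = 0.0717), nor with all 12 libraries in 1 model (0.57, edgeR adjusted p = 0.0749). With both sexes in 1 model and sex as a term, chosen after seeing the data, 5 of 8 genes were called, beside 10859 of 15747 genes in all, and Gata1 turned to 0.058. Leaving out 1 library at a time, 2 to 5 genes were called in females and 2 to 8 in males. In such fits the change of Rhag in females ranged from -0.018 to 0.26. The sex difference at 65 weeks ranged from -0.087 to 0.36 for Gata1, -0.084 to 0.35 for Klf1, -0.26 to 0.12 for Epor, -0.29 to 0.068 for Slc4a1, -0.25 to 0.10 for Rhag, -0.34 to 0.017 for Sptb and -0.27 to 0.16 for Ank1. The interaction ranged from -0.14 to 0.28 for Epor, -0.087 to 0.32 for Epb42 and -0.0029 to 0.38 for Rhag. None of these passed the threshold. The cause of these changes was not tested.

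Genes called between the sexes at 2 weeks numbered 5, against 412 by DESeq2, 8 with 12 libraries, 11 without female replicate 2 and 8 without male replicate 3. At 65 weeks there were 6, against 357 by DESeq2, 105 with no filter, 254 with 12 libraries, 10 with library totals, 830 without male replicate 3 and 15 without male replicate 2. The interaction gave 1, against 362 by DESeq2, 7 with no filter, 750 without male 65-week replicate 3, and 0 to 2 under the other settings that moved it. None of the 8 genes was among them.

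Deviations of same-numbered libraries correlated between -0.576 and 0.271, and those of differently numbered libraries between -0.436 and 0.551. With 3 libraries a group, these values cannot decide whether the replicate numbers pair the libraries. With the replicate block 3 of 8 genes were called in females and 4 of 8 in males, as without it. With every library thinned to the smallest total, 26044743 counts, 3 and 4 genes were called as well. With 3 libraries a group, a change that was not called may still be present.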
